A study of Arabidopsis thaliana with 9 samples.

Results

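The WRKY transcription factors are a plant family named for a short conserved peptide in their DNA-binding domain. From the 32833 gene loci in the count table, 55 listed WRKY genes were taken by their locus identifiers. The list was not checked for completeness, so counts, shares and sums below are those of the listed members. The family is divided into groups by the number and kind of its zinc-finger domains: group I carries a pair of WRKY domains, group II a single one and is split into subgroups IIa to IIe, and group III has a different zinc finger. WRKY proteins bind the W-box, the letters TTGACC or TTGACT, in the promoters of genes for immunity, senescence and drought, including promoters of WRKY genes themselves. In leaves, many WRKY genes respond to salicylate, to microbial signals passed on by MAP kinases, and to age. WRKY46, WRKY54 and WRKY70 are also known as partners of BES1, the transcription factor that carries the brassinosteroid growth signal, and restrain drought-induced genes.

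The RNA came from whole rosettes of Arabidopsis thaliana plants aged 4 weeks, kept in 16 h of light and 8 h of darkness. WT was compared with TINYOE, whose genotype label BES1P::TINYOE names an overexpression construct of the AP2/ERF factor TINY, and with tiny124, labelled tiny1tiny2tiny4, with 3 libraries of each genotype. The series' title sets TINY between brassinosteroid growth and drought response, which are also processes of the WRKY factors above. How many independent lines stand behind the TINYOE label, and whether libraries of a genotype came from separate plants or pools, is not given in the labels, so a p-value here reflects the spread among these libraries alone, which may be technical.

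Each library held 4917868 to 6070778 counts of 3' tags, 1 tag per transcript molecule sequenced, so that levels in CPM (counts scaled to a common library size) need no correction for gene length and 1 count was worth 0.165 to 0.212 CPM. TINY itself had only 18 to 25 counts per WT library, 27 to 35 per TINYOE library and 3 to 5 per tiny124 library. Against WT it was called lower in the mutant (log2 fold change -2.48, adjusted p = 0.00168). It had no call in the overexpression line (0.40, adjusted p = 0.343), so the tags of TINY do not check the overexpression label. AT4G32800, listed with TINY as a targeted gene, was called lower than WT in TINYOE (-1.48, adjusted p = 0.00201) and tiny124 (-2.86, adjusted p = 0.00017). TINYOE lay above tiny124 there (1.38, adjusted p = 0.0205). TINY2, also listed, was too scarce to test. Its tags per library were 5, 7 and 11 for WT, 2, 1 and 0 for TINYOE, 1, 0 and 0 for tiny124. The part of these genes in WRKY members higher in both lines was not tested. The WT libraries were spread out: replicate 2 lay apart on the first principal component (0.53, against -53.91 and -31.48 for replicates 1 and 3) and replicate 1 on the second (40.36, against 9.06 and 4.02 for replicates 2 and 3). Leaf markers were abundant in every library, at a summed 25231 to 32176 CPM in WT, 21285 to 23404 in TINYOE and 27268 to 28897 in tiny124, and 4 of the 6 (RBCS1A, RCA, LHCB2.1 and CA1) were called lower in TINYOE than in WT, each of them losing its call without WT replicate 3 (highest adjusted p over the alternatives 0.0569 to 0.157).

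Of the 55 WRKY loci, 38 passed the filter on low counts and were tested among 16434 genes. Among the listed members, those tested were 9 of 10 in group I and 6 of 9 in group III. Those of group II were all 3 in IIa, 2 of 7 in IIb and 7 of 13 in IIc. In IId all 6 listed were tested, and in IIe 5 of 7. The other 17 (WRKY12, 23, 28, 29, 31, 35, 36, 41, 42, 43, 44, 55, 61, 62, 71, 72 and 75) had 0 to 17 counts in any library. WRKY31, WRKY41 and WRKY71 had no count in any WT library, where 3 counts over the genotype correspond to 0.194 CPM. WRKY41 also had none in tiny124 and WRKY72 none in TINYOE, with limits of 0.178 and 0.17 CPM. These limits cover counting error only. WRKY75, a factor of phosphate starvation and senescence, stood at 10, 4 and 1 counts in WT, at 2, 0 and 0 in TINYOE and at 4, 3 and 1 in tiny124.

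TINYOE rosettes carried more RNA of many WRKY genes than WT rosettes, led by the salicylate-linked WRKY38, WRKY51 and WRKY70. A member was called where edgeR's quasi-likelihood test gave an adjusted p below 0.05, with adjustment over all genes tested. In TINYOE against WT, 11 of 38 tested members (28.9%) were called higher, beside 8.15% of all genes tested. None was called lower, beside 7.44% of all genes; at an unadjusted p below 0.05, edgeR gave 15 members higher and 1 lower (WRKY13), and DESeq2 also called 0 lower. Members below the filter do not enter these shares, and WRKY38 and WRKY51 reached the filter's level in every library of TINYOE alone, so the shares describe the tested members and not the family. The median log2 fold change of the 38 was 0.39, with 30 above 0 and a range of -0.89 to 2.25, and that of all genes tested was 0.0015.

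The tiny124 rosettes differed from WT in fewer members, and in both directions. Of the 38, 5 were called higher (13.2%; all genes 1.75%) and 1 lower (2.63%; all genes 0.755%). Between the lines, 7 were called higher in TINYOE than in tiny124 (18.4%; all genes 5.12%) and none lower (all genes 4.73%). There edgeR gave 2 members lower at an unadjusted p below 0.05, WRKY13 and WRKY25, and DESeq2 called 0. The 7 include WRKY38 and WRKY51, which reached the filter's level in every library of TINYOE alone. This share too describes the tested members and not the family. The median log2 fold change of the members was 0.05 in tiny124 against WT and 0.16 in TINYOE against tiny124, where all genes had -0.01 and 0.01. Without WT replicate 1, 10 members were called higher in TINYOE than in WT and 4 in tiny124, all among the calls above. Without WT replicate 2, 12 members were higher in TINYOE than in WT, the 11 and WRKY48, and 5 in tiny124, 4 of them shared with the calls above. Without TINYOE replicate 3 the count in TINYOE was 7, and without tiny124 replicate 1, WT replicate 3 or tiny124 replicate 3 the count in tiny124 was 1, 2 or 3.

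By their calls, 14 members fell into a few patterns. WRKY15, WRKY18, WRKY22, WRKY33 and WRKY40 were higher than WT in both lines, and none of the 5 was called between the lines. The comparisons with WT share its libraries, so these calls are not independent of each other. WRKY38, WRKY50, WRKY51 and WRKY70 were higher in TINYOE than in WT and than in tiny124. WRKY46 and WRKY53 were called in TINYOE against WT alone, WRKY47 and WRKY60 between the lines alone, and WRKY54 was lower in tiny124 than in both other genotypes. The remaining 24 tested members had no call. The shares of all genes tested that show the same joint patterns were not counted, so these counts are descriptions.

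**Figure D1:**
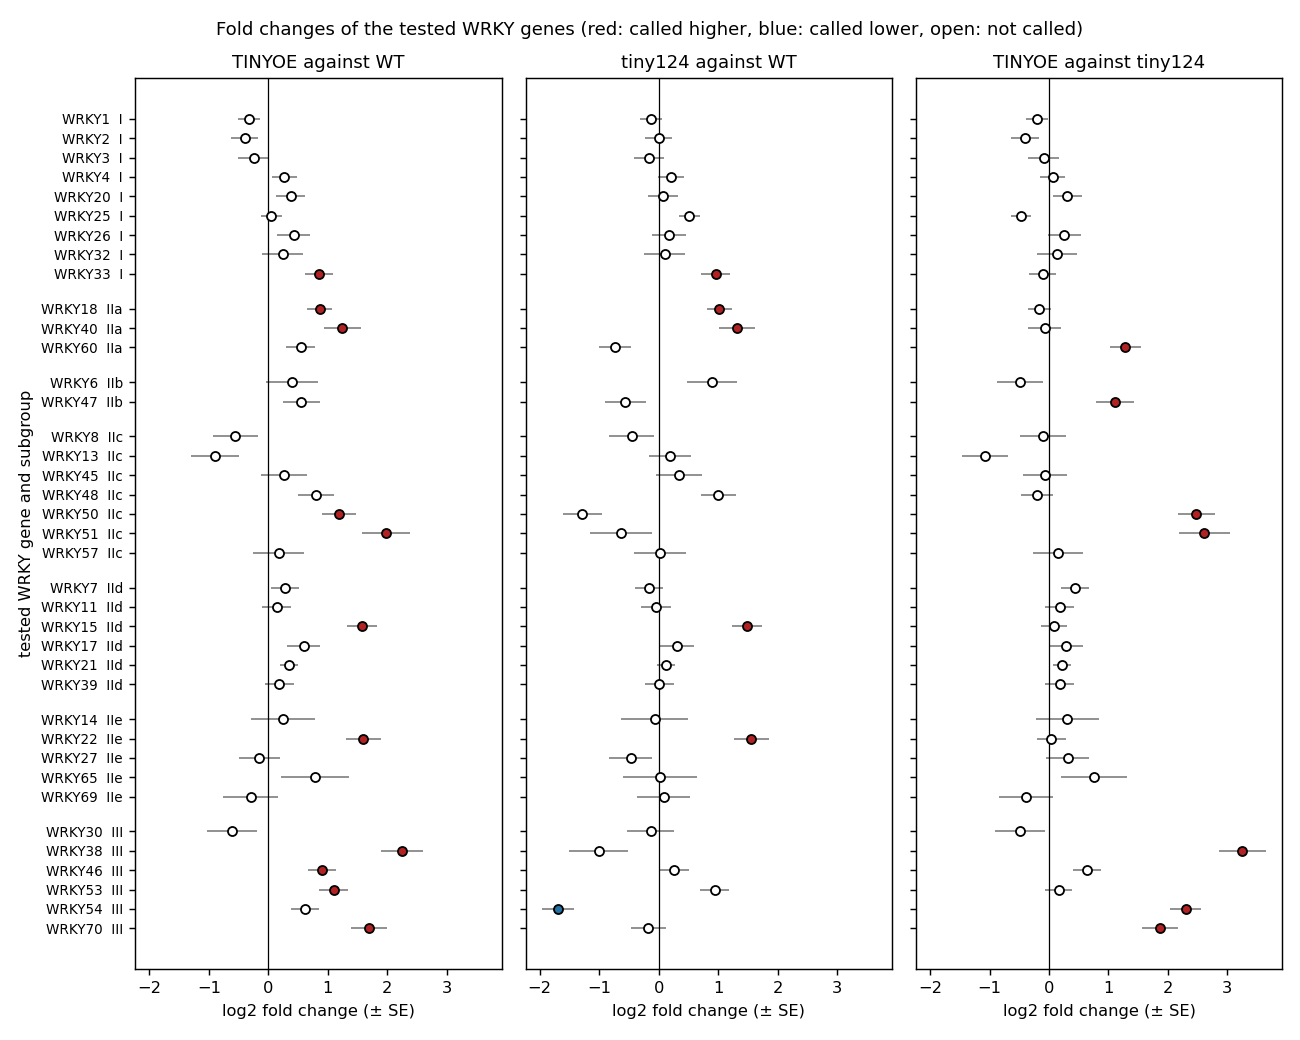
Log2 fold changes with SE of the tested WRKY members in the 3 comparisons, members ordered by group. Filled points mark calls at an adjusted p below 0.05: 11 in TINYOE against WT, 6 in tiny124 against WT (5 higher, 1 lower) and 7 between the lines.

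Of the 14 called members, 3 had W-box letters in the 250 bases before the gene start, and each had 2: WRKY15, WRKY33 and WRKY53. The promoters of these are shown because WRKY factors bind that motif, and the promoter of WRKY70, the most abundant member, is shown as one without it. Sequences are from the RefSeq TAIR10.1 assembly, 5′ to 3′ on the strand of the gene, and capitals mark TTGACC or TTGACT, or their reverse complements GGTCAA and AGTCAA. They lie at chr2:9924636-9924885 on the plus strand (WRKY15), chr2:16107985-16108234 on the plus strand (WRKY33), chr4:12393983-12394232 on the minus strand (WRKY53) and chr3:20910624-20910873 on the minus strand (WRKY70).
WRKY15: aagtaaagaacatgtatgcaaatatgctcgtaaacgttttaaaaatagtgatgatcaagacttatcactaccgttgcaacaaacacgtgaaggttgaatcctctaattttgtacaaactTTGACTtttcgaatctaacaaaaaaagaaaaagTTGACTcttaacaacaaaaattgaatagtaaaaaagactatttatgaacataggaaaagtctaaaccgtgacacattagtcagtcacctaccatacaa
WRKY33: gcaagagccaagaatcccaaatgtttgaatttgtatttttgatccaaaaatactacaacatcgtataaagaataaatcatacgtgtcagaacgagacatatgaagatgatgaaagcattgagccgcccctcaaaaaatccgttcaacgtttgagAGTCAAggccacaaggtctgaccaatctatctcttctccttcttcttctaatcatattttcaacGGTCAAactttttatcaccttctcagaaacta
WRKY53: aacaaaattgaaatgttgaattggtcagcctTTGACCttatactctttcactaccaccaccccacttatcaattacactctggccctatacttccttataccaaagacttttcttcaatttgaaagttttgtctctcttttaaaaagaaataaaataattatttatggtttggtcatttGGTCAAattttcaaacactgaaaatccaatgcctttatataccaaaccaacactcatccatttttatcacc
WRKY70: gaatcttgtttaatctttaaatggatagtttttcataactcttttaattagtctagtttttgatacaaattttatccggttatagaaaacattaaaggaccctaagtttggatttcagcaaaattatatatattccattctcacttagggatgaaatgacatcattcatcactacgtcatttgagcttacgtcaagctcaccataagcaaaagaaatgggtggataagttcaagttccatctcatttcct

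The W-box letters began 131 and 98 bases before the gene start in WRKY15, 96 and 32 in WRKY33, and 219 and 71 in WRKY53. On either strand they were found in 28.4% of the windows of this length before all 27443 protein-coding genes, in 20 of the 55 WRKY windows (36.4%), and in 3 of the 14 called ones (21.4%) beside 8 of the 24 tested and not called (33.3%). Windows with 2 or more were 6.18% of all and 10 of the 55 (18.2%). They were 3 of the 14 called (21.4%) and 4 of the 24 tested and not called (16.7%). A match is a run of letters and not a site shown to be bound, and its absence says only that the letters are not in this window.

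**Figure D2:**
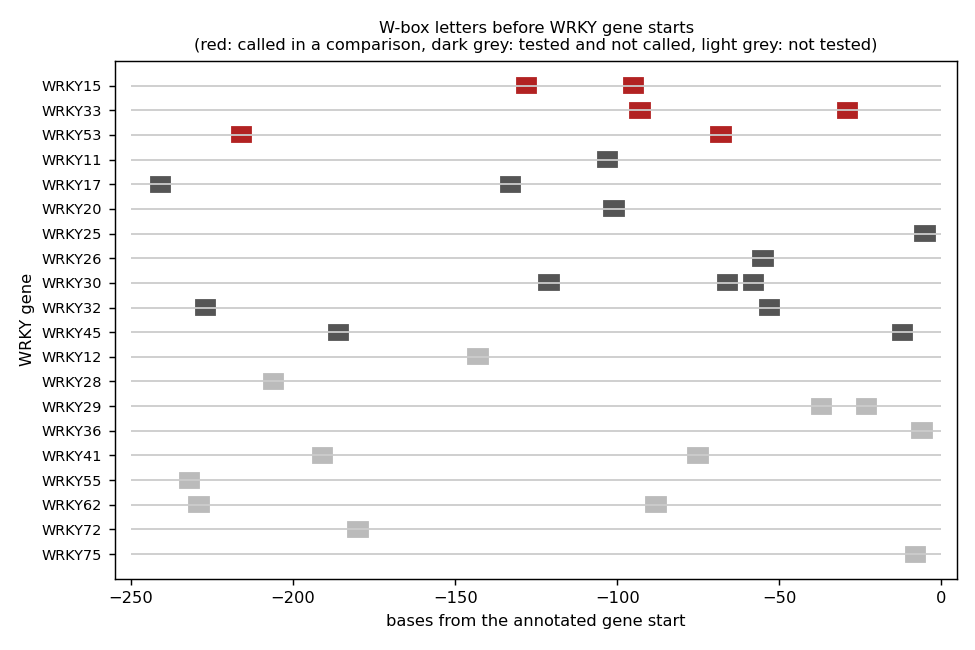
Distance in bases from the annotated gene start of each W-box match in the 250 bases upstream of the 20 WRKY genes that have one, coloured by whether the gene was called, tested and not called, or not tested. WRKY15, WRKY33 and WRKY53 are the called genes, with 2 matches each.

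Among the BES1 partners, all from group III, WRKY70 (AT3G56400) had the highest mean level of all listed members. It acts where salicylate and jasmonate signals meet and holds back leaf senescence. WRKY70 was at 58.3, 141 and 92.6 CPM in WT, at 413, 211 and 317 in TINYOE and at 88.1, 110 and 60.5 in tiny124. Every TINYOE library lay above every library of the other genotypes, while tiny124 and WT overlapped. The level in TINYOE was 3.22-fold that in WT (log2 fold change 1.69 ± 0.30 SE, adjusted p = 0.00132) and 3.64-fold that in tiny124 (1.86 ± 0.30, adjusted p = 0.000799). In tiny124 against WT the log2 fold change was -0.17 ± 0.30 (adjusted p = 0.897), and without WT replicate 2, the highest WT library for WRKY70, it was 0.20. In bulk rosettes, fewer cells of a type and less RNA per cell cannot be told apart, here and in all that follows.

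WRKY54 (AT2G40750), the closest relative of WRKY70, was the only tested member called lower in tiny124. It stood at 15.4, 18.6 and 20.7 CPM in WT, at 34.4, 23 and 26.1 in TINYOE and at 4.9, 8.1 and 3.81 in tiny124. The 3 genotypes did not overlap, with tiny124 lowest and TINYOE highest. Against WT it fell 3.22-fold in tiny124 (log2 fold change -1.69 ± 0.27 SE, adjusted p = 0.00255). TINYOE stood 4.92-fold above tiny124 (2.30 ± 0.26, adjusted p = 4.12e-05), but its difference from WT was not called (0.61 ± 0.24, adjusted p = 0.0897). WRKY54 thus had a call in tiny124 and WRKY70 did not; the difference between the members was not tested.

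WRKY46 (AT2G46400), the other BES1 partner, is known in guard cells and under osmotic stress. It was at 21.8, 15.5 and 17 CPM in WT, at 39.7, 21.9 and 40.5 in TINYOE and at 25, 21.5 and 18.9 in tiny124. All TINYOE libraries were above WT, replicate 2 by a small margin, and tiny124 overlapped both. WRKY46 rose 1.88-fold in TINYOE (log2 fold change 0.91 ± 0.24 SE, adjusted p = 0.0154). This call was lost without WT replicate 3 or TINYOE replicate 1 or 3 (highest adjusted p = 0.0739). The difference between the lines, 0.64 ± 0.23, was not called (adjusted p = 0.0953). It passed with no filter (adjusted p = 0.0323), with only the 6 libraries compared (0.0474) and without TINYOE replicate 2 (0.0231). In the other 12 alternatives it had no call, with an adjusted p up to 0.305.

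**Figure D3:**
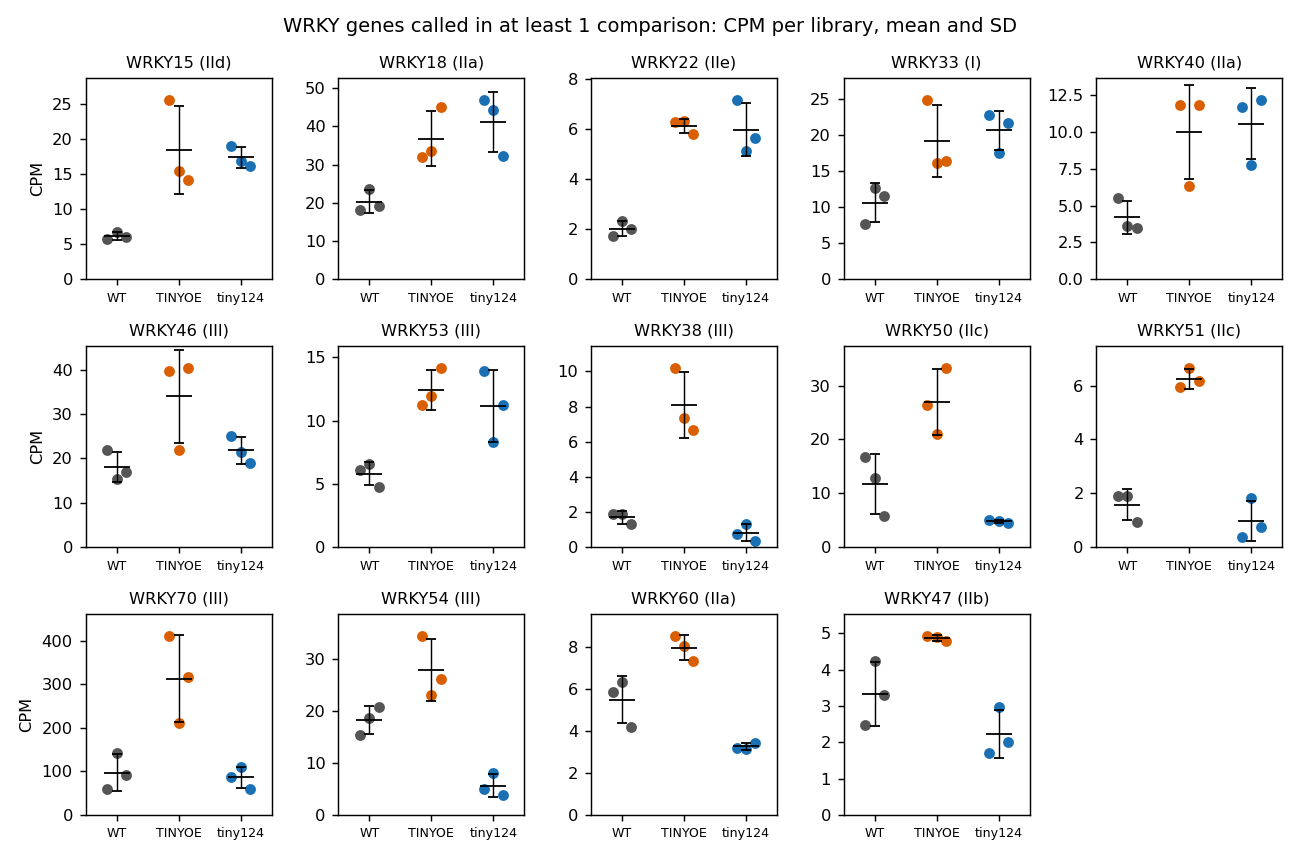
Level in CPM of the 14 called WRKY members in each of the 9 libraries (points, by genotype) with genotype means and SD (n = 3), each panel on its own axis from 0. WRKY15, WRKY18, WRKY22, WRKY33 and WRKY40 are high in TINYOE and tiny124 alike, whereas WRKY38, WRKY50, WRKY51 and WRKY70 are high in TINYOE.

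Further factors linked to salicylate were higher in TINYOE than in both other genotypes. WRKY38 (AT5G22570), a group III repressor of basal defence, was at 1.9, 1.91 and 1.28 CPM in WT, at 10.2, 7.36 and 6.66 in TINYOE and at 0.753, 1.32 and 0.363 in tiny124. TINYOE did not overlap the other genotypes, while WT and tiny124 overlapped. It had the largest fold change of any tested member in TINYOE, 4.74-fold over WT (log2 fold change 2.25 ± 0.35 SE, adjusted p = 0.000473) and 9.55-fold over tiny124 (3.26 ± 0.39, adjusted p = 5.85e-05). Its partner WRKY62 was among the 17 that were not tested.

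WRKY50 and WRKY51 are close relatives in subgroup IIc that repress jasmonate responses when salicylate is high. WRKY50 (AT5G26170) was at 16.7, 12.9 and 5.68 CPM in WT, at 26.3, 21 and 33.3 in TINYOE and at 5.08, 4.8 and 4.54 in tiny124. WT spread widely, yet the 3 genotypes did not overlap. The rise over WT in TINYOE was 2.29-fold (log2 fold change 1.20 ± 0.29 SE, adjusted p = 0.00976) and was lost without TINYOE replicate 3 (adjusted p = 0.0539). The value in tiny124 against WT was not called (-1.28 ± 0.33, adjusted p = 0.0512). It passed with DESeq2 (adjusted p = 0.0108), with no filter (0.000155) and without WT replicate 3 (0.00753), the lowest WT library for WRKY50. Over the other alternatives it had no call, with an adjusted p up to 0.229. TINYOE stood 5.58-fold above tiny124 (2.48 ± 0.32, adjusted p = 9.67e-05).

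WRKY51 (AT5G64810) was scarcer, at 1.9, 1.91 and 0.917 CPM in WT, at 5.93, 6.66 and 6.15 in TINYOE and at 0.377, 1.82 and 0.726 in tiny124. The TINYOE libraries lay close together and above the rest, and tiny124 overlapped WT at only a few counts per library. WRKY51 rose 3.96-fold over WT (log2 fold change 1.99 ± 0.40 SE, adjusted p = 0.00323) and was 6.13-fold above tiny124 (2.62 ± 0.43, adjusted p = 0.000765).

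The factors called higher than WT in both lines were WRKY15, WRKY18, WRKY22, WRKY33 and WRKY40, and whether they share a function was not tested. WRKY15 (AT2G23320), a subgroup IId factor of leaf growth and osmotic stress with W-box letters in the promoter shown, was at 5.7, 6.78 and 6.05 CPM in WT, at 25.5, 15.4 and 14.2 in TINYOE and at 19, 16.9 and 16.2 in tiny124. Neither line overlapped WT, and the lines overlapped each other. The rise was 2.98-fold in TINYOE (log2 fold change 1.57 ± 0.25 SE, adjusted p = 0.000483) and 2.81-fold in tiny124 (1.49 ± 0.25, adjusted p = 0.00378), and the lines differed by 0.09 ± 0.22 (adjusted p = 0.86).

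WRKY22 (AT4G01250), a subgroup IIe factor downstream of MAP kinases in immune signalling, was at 1.71, 2.33 and 2.02 CPM in WT, at 6.26, 6.31 and 5.81 in TINYOE and at 7.16, 5.13 and 5.63 in tiny124. Both lines were above WT in all libraries. The rise was 3.02-fold in TINYOE (log2 fold change 1.60 ± 0.29 SE, adjusted p = 0.0015) and 2.94-fold in tiny124 (1.56 ± 0.29, adjusted p = 0.00833, and 0.0542 without tiny124 replicate 1). Its functional partner WRKY29 had too few counts to be tested.

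WRKY33 (AT2G38470), a group I factor required for camalexin synthesis and resistance to necrotrophic fungi, was at 7.59, 12.7 and 11.5 CPM in WT, at 24.9, 16.1 and 16.4 in TINYOE and at 22.8, 17.5 and 21.6 in tiny124. The lines did not overlap WT. The rise was 1.81-fold in TINYOE (log2 fold change 0.85 ± 0.24 SE, adjusted p = 0.0233) and 1.94-fold in tiny124 (0.96 ± 0.24, adjusted p = 0.043). The first call was lost without WT replicate 1 or 3 or TINYOE replicate 1 (highest adjusted p = 0.128), and the second when any one of 7 libraries was left out (highest adjusted p = 0.196), with only the 6 libraries compared (0.0611) and with a replicate block (0.0942). In the TAIR10.1 annotation WRKY33 overlaps genes on the opposite strand, and so do WRKY40 and WRKY53; whether the counting used strand is not given in the sources used here, so their tags are uncertain to that extent.

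Subgroup IIa holds WRKY18, WRKY40 and WRKY60, which interact with one another and dampen immune and abscisic acid responses. WRKY18 (AT4G31800) was at 18, 23.7 and 19.1 CPM in WT, at 31.9, 33.5 and 44.9 in TINYOE and at 46.9, 44.2 and 32.3 in tiny124. WRKY40 (AT1G80840) was at 5.51, 3.6 and 3.48 CPM in WT, at 11.9, 6.31 and 11.8 in TINYOE and at 11.7, 7.77 and 12.2 in tiny124. For both genes each line lay above WT and the lines overlapped.

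WRKY18 rose 1.82-fold in TINYOE (log2 fold change 0.86 ± 0.21 SE, adjusted p = 0.00966) and 2.03-fold in tiny124 (1.02 ± 0.21, adjusted p = 0.0132). The calls were lost without TINYOE replicate 3 in the former (adjusted p = 0.058), and without WT replicate 3 or tiny124 replicate 1 or 2 in the latter (highest adjusted p = 0.0863). WRKY40 rose 2.37-fold in TINYOE (1.25 ± 0.31, adjusted p = 0.0113) and 2.49-fold in tiny124 (1.32 ± 0.31, adjusted p = 0.0301). Its calls were lost without WT replicate 3 or TINYOE replicate 3 (highest adjusted p = 0.0596), and without WT replicate 2 or 3 or tiny124 replicate 1 or 3 (highest adjusted p = 0.138).

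WRKY40 lies near the end of chromosome 1 among 193 tested genes, AT1G78410 to AT1G80970 by locus number, whose median log2 fold change in TINYOE against WT was 0.92. Of these, 129 were called higher, where 8.15% of all genes tested were. The rest of the chromosome had a median of 0.00. In tiny124 against WT the 193 genes had a median of -0.03, with 6 called higher (all genes 1.75%), and WRKY40 was above that median at 1.32. The stretch was bounded with earlier results of these data known and includes WRKY40 itself, so its median and calls are descriptions. The part of the stretch in the TINYOE value of WRKY40 was not tested.

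WRKY60 (AT2G25000) stood at 5.89, 6.35 and 4.22 CPM in WT, at 8.56, 8.06 and 7.35 in TINYOE and at 3.2, 3.14 and 3.45 in tiny124. The genotypes did not overlap, with WT in the middle. Neither line's difference from WT was called (log2 fold changes 0.55 ± 0.24 and -0.74 ± 0.27, adjusted p = 0.137 and 0.229), but TINYOE was 2.44-fold above tiny124 (1.29 ± 0.26, adjusted p = 0.00383). WRKY18 and WRKY40 thus shared their calls, and WRKY60 had its call in another comparison; the difference between the members was not tested.

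WRKY53 (AT4G23810), a group III regulator of the onset of leaf senescence, was at 6.08, 6.56 and 4.77 CPM in WT, at 11.2, 11.9 and 14.2 in TINYOE and at 13.9, 8.27 and 11.3 in tiny124. Both lines lay above WT. TINYOE passed the test, with a 2.15-fold rise (log2 fold change 1.10 ± 0.25 SE, adjusted p = 0.00629), while tiny124 had 0.94 ± 0.25 (adjusted p = 0.0597). The latter passed with no filter (adjusted p = 0.0205), without WT replicate 2 (0.0498) and without tiny124 replicate 2 (0.0446). Over the other alternatives it had no call, with an adjusted p up to 0.327. The lines differed by 0.16 ± 0.23 (adjusted p = 0.725). WRKY47 (AT4G01720), of subgroup IIb, was at 2.47, 4.24 and 3.3 CPM in WT, at 4.94, 4.91 and 4.78 in TINYOE and at 1.69, 2.98 and 2 in tiny124. TINYOE was above the rest, 2.16-fold over tiny124 (1.11 ± 0.32, adjusted p = 0.0358), a call lost when any one TINYOE library or tiny124 replicate 1 or 3 was left out, and with DESeq2 (highest adjusted p = 0.146).

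The abundant members outside these groups had no call. WRKY21 (AT2G30590), a calmodulin-binding type of subgroup IId, had 55.8 ± 3.91 CPM in WT, 71.1 ± 2 in TINYOE and 60.7 ± 2.49 in tiny124 (SD, n = 3), and was second in mean level after WRKY70. Its TINYOE libraries, from 69 to 73 CPM, lay above all others, with a log2 fold change over WT of 0.35 (adjusted p = 0.133). WRKY25 (AT2G30250), a group I factor of heat and salt responses related to WRKY33, had 30.6 ± 3.05, 31.6 ± 3.34 and 43.7 ± 5.69 CPM in the same order. Its log2 fold change was 0.52 in tiny124 against WT (adjusted p = 0.181) and -0.47 in TINYOE against tiny124 (adjusted p = 0.106). WRKY13 (AT4G39410), a scarce member with 4 to 18 counts per library, had no call either. It had the lowest log2 fold change of the tested members in TINYOE against WT, -0.89 (adjusted p = 0.138). Its level was 2.65 ± 0.17 CPM in WT, 1.42 ± 0.653 in TINYOE and 3.04 ± 0.31 in tiny124.

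Group III held the most calls in TINYOE against WT, 4 of 6 tested members (WRKY38, WRKY46, WRKY53 and WRKY70), with a median log2 fold change of 1.0, where 8.15% of all genes were called higher. In IIa it was 2 of 3, in IIc 2 of 7, and in I, IId and IIe 1 each of 9, 6 and 5, while neither tested IIb member was called. Calls in tiny124 against WT were 2 in IIa, 1 each in I, IId and IIe, and the lower call of WRKY54 in group III (all genes 1.75% higher, 0.755% lower). Between the lines, 3 of the 7 were in group III, 2 in IIc and 1 each in IIa and IIb (all genes 5.12% higher). WRKY38 in group III and WRKY51 in IIc reached the filter's level in every library of TINYOE alone. For that reason, and with so few members in a group, these counts are descriptions.

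Summed over the 55 loci, WRKY tags stood at 392, 482 and 415 CPM in WT, at 905, 640 and 794 in TINYOE and at 501, 483 and 456 in tiny124. TINYOE lay above both other genotypes, and the highest WT library came between those of tiny124. WRKY70 alone gave 14.9% to 29.3% of the sum in WT, 33% to 45.6% in TINYOE and 13.3% to 22.8% in tiny124. Without it the sums were 332 ± 9.34 CPM in WT, 466 ± 33.1 in TINYOE and 394 ± 20.1 in tiny124 (SD, n = 3), and the genotypes did not overlap.

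**Figure D4:**
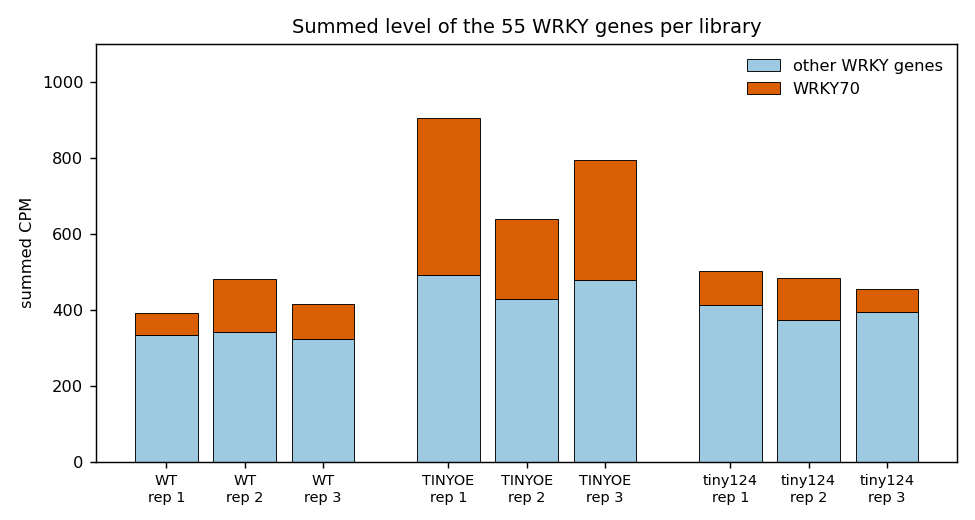
Summed level of the 55 WRKY loci in CPM per library, stacked as WRKY70 and the other members. TINYOE libraries reach 640 to 905 CPM, above WT (392 to 482) and tiny124 (456 to 501).

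Genes of proteins that work with WRKY factors also had calls. VQ proteins bind WRKY domains and alter their activity, and 14 of 33 listed were tested. In TINYOE against WT, 4 were called higher and 0 lower by edgeR (all genes 8.15% and 7.44%), with a median log2 fold change of 0.74; DESeq2 called 5 and 0, and at an unadjusted p below 0.05 edgeR gave 8 and 0. The 4 were AT1G17147 with a log2 fold change of 2.04 (adjusted p = 0.0083), AT1G78410 with 1.70 (adjusted p = 0.000424), SIB1, which activates WRKY33, with 1.34 (adjusted p = 0.00397) and AT1G80450 with 1.11 (adjusted p = 0.00723). AT1G78410 and AT1G80450 lie in the stretch of chromosome 1 described for WRKY40.

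Against WT, 3 VQ genes were called higher in tiny124 by edgeR and 0 lower (all genes 1.75% and 0.755%), as with DESeq2, with 1 lower at an unadjusted p below 0.05. AT3G56880 (log2 fold change 1.26, adjusted p = 0.00382) was called in every alternative. AT2G22880 (2.02, adjusted p = 0.0382) and AT1G17147 (1.95, adjusted p = 0.0415) were not, with adjusted p up to 0.284 and 0.203. Between the lines, 3 were called higher in TINYOE and 1 lower (all genes 5.12% and 4.73%). SIB1 (1.32, adjusted p = 0.0055) and AT1G78410 (1.13, adjusted p = 0.00786) were higher in every alternative. AT3G22160 was higher (1.52, adjusted p = 0.0372) and AT2G22880 lower (-1.77, adjusted p = 0.0222), and both calls were lost when any one TINYOE library was left out.

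The MAP kinase cascade feeds into WRKY33 and WRKY22 through phosphorylation, and all 11 listed members were tested. In TINYOE against WT, MPK11 (1.28 ± 0.482 to 6.34 ± 3.11 CPM, log2 fold change 2.28, adjusted p = 0.00329), MPK3 (65.8 ± 34.4 to 149 ± 34.7 CPM, 1.18, adjusted p = 0.0155) and MEKK1 (0.55, adjusted p = 0.0424) were called higher and 0 lower (all genes 8.15% and 7.44%), by edgeR and by DESeq2, with 6 higher and 0 lower at an unadjusted p below 0.05 in edgeR. MPK3 and MPK11 code for immune MAP kinases and MEKK1 for a kinase at the head of the cascade. The call of MPK3 was lost without WT replicate 3 or TINYOE replicate 1 (highest adjusted p = 0.0743), and that of MEKK1 in 11 alternatives (highest adjusted p = 0.152). In tiny124 against WT and between the lines edgeR and DESeq2 called 0 of 11, where edgeR called 1.75% and 5.12% of all genes higher, so that a count of 0 is near the background. In each, edgeR gave 3 higher and 0 lower at an unadjusted p below 0.05.

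Genes known as WRKY targets gave calls in both directions, among 13 tested of 15 listed. The counts were 4 higher and 1 lower in TINYOE against WT (all genes 8.15% and 7.44%), 2 and 1 in tiny124 against WT (1.75% and 0.755%) and 5 and 1 between the lines (5.12% and 4.73%). The single lower call in TINYOE against WT, 7.69% of those tested, is near the background. In TINYOE against WT, MYB51 and CYP81F2, of indole glucosinolate synthesis, had log2 fold changes of 1.5 (adjusted p = 6.4e-05) and 1.60 (adjusted p = 0.00441). The immune regulators PAD4 and EDS1 had 1.44 (adjusted p = 0.00106) and 1.07 (adjusted p = 0.00766). SAG12, a senescence marker, was the 1 called lower, from 6.26 ± 5.54 to 0.229 ± 0.261 CPM (-4.66, adjusted p = 0.00299). In tiny124 against WT, CYP81F2 (1.43, adjusted p = 0.0345) and MYB51 (0.86, adjusted p = 0.0202) were higher. CYP71A13, a camalexin enzyme that WRKY33 activates, was called lower (-2.34, adjusted p = 0.0415), but the genotypes overlapped. CYP71A13 was at 12.5, 16.1 and 1.65 CPM in WT and at 1.88, 1.65 and 2.36 in tiny124. These 3 calls were lost in 3 to 10 alternatives, that of CYP71A13 also with DESeq2 (highest adjusted p = 0.176). Between the lines the higher ones were led by the salicylate marker PR1 (3.30, adjusted p = 0.00198), PAD4 (1.70, adjusted p = 0.00035) and EDS1 (1.22, adjusted p = 0.00456). SAG12 was lower (-3.41, adjusted p = 0.048, and up to 0.237 over the alternatives). PR1 had no call against WT, with log2 fold changes of 1.06 in TINYOE (adjusted p = 0.202) and -2.25 in tiny124 (adjusted p = 0.0579). Its WT libraries, at 59.6, 151 and 14.5 CPM, overlapped those of TINYOE, at 188.9, 58.4 and 219.6. EDS16, of salicylate synthesis, was called between the lines (0.88, adjusted p = 0.0278, and up to 0.126 over the alternatives) and not against WT. NPR1, the salicylate receptor, had no call.

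**Figure D5:**
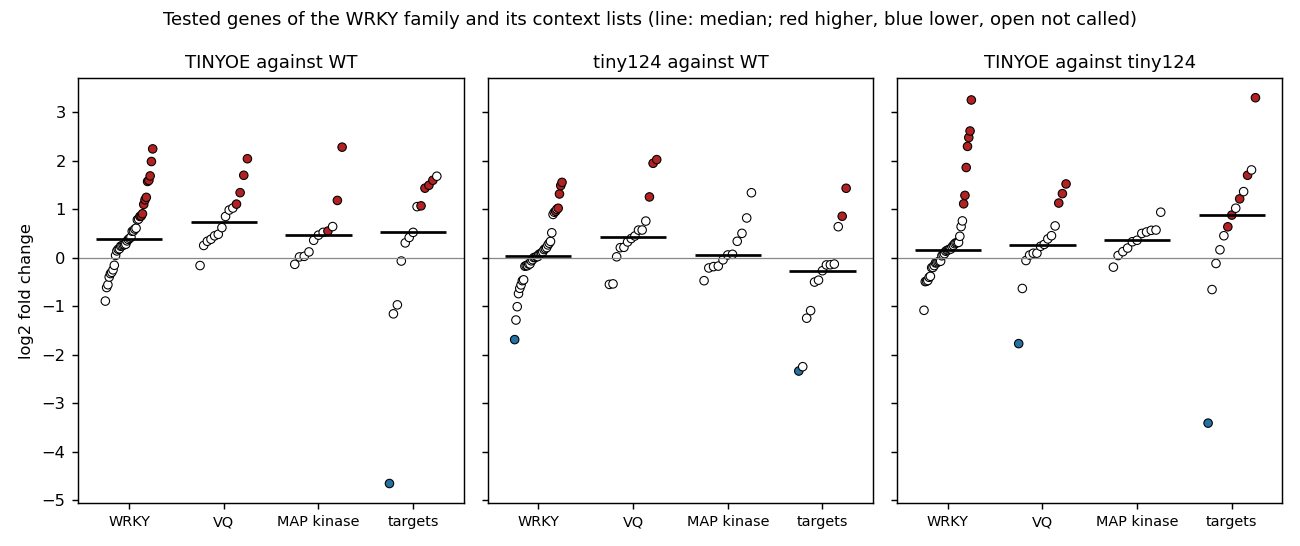
Log2 fold changes of the tested WRKY genes, VQ proteins, MAP kinase cascade members and listed WRKY targets in the 3 comparisons, with called genes filled and a line at each median. In TINYOE against WT, 4 VQ, 3 kinase and 4 target genes were called higher and 1 target lower.

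Of the inflorescence and flower markers, 5 of 6 were tested, and all 5 had a log2 fold change above 0 in TINYOE against WT, with a median of 1.02. Of these, PI was called (0.96, adjusted p = 0.0282, and up to 0.155 over the alternatives). Their summed level was 16.7 to 30.4 CPM in WT, 30.5 to 64.2 in TINYOE and 27 to 30.7 in tiny124. Root markers summed to 22.4 to 27.3, 23.3 to 27.2 and 22 to 26.5 CPM in the same order, with 0 to 3 of the 6 at 0 counts in a library. Neither tool, edgeR or DESeq2, called any of the 2 root markers tested, and 1 reached an unadjusted p below 0.05, between the lines. The part of the leaf and flower markers in the WRKY values was not tested.

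Both of the authors' deposited tables lack WT replicate 2, so their calls and those given here rest on different sets of WT libraries. The authors' deposited table for TINYOE against WT called 9.09% of its genes higher and 8.37% lower, and 8 of the 11 members called higher here were called higher there. In the authors' deposited table the exceptions were WRKY40 (adjusted p = 0.195), WRKY46 (0.172) and WRKY50 (0.0662). The authors' deposited table for tiny124 called 1.96% of its genes higher and 0.97% lower, with WRKY15, WRKY18 and WRKY22 higher and WRKY54 lower among the 6 called here. WRKY33 (adjusted p = 0.0687) and WRKY40 (0.369) did not pass in the authors' deposited table.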

How the data were processed

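Raw counts per gene locus were deposited by the authors for 9 libraries. Per the labels, reads of a 3' tag kit (QuantSeq FWD) were mapped to TAIR10 with the Lexogen pipeline 2.2.2; aligner, annotation and strand setting were not given in the sources used here. DESeq2 is named by the submitters' processing notes. The authors also deposited tables of log2 fold changes with p-values for each line against WT; 20 per-sample columns of those tables were not used.

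The 55 loci were taken by identifier, and symbols, overlaps and promoters from RefSeq TAIR10.1 (32548 loci matched). The members and lists were chosen with earlier results of these data known. Counts were tested with edgeR 4.0.16 (limma 3.58.1, R 4.3.3): filterByExpr, TMM scaling, quasi-likelihood fit of genotype over all 9 libraries (6 residual degrees of freedom), two-sided, Benjamini-Hochberg over 16434 genes, threshold 0.05. The code was tested on simulated data. The filter removed 0.296% of counts. CPM are counts over TMM-scaled library sizes; SE is the log2 fold change over the root of F. Libraries of a genotype differed beyond sampling noise.

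Values are given for called members (at most 10 per direction), the BES1 partners, subgroup IIa, WRKY33, WRKY53, the 5 highest in mean level and, chosen after their values were seen, WRKY13 and WRKY75. Alternatives were DESeq2 1.42.0, its size factors, no filter, a filter of 5 CPM in 3 libraries, the 6 libraries of each comparison, a replicate block, and leaving out each library.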

Additional observations from a re-analysis of the deposited data

How the results depend on the processing

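Of the 24 member calls, 14 held in all 15 alternative settings: WRKY15, WRKY22, WRKY38, WRKY51, WRKY53 and WRKY70 in TINYOE against WT, WRKY15 and WRKY54 in tiny124 against WT, and WRKY38, WRKY50, WRKY51, WRKY54, WRKY60 and WRKY70 between the lines. The other 10 were lost in at least 1. Leaving out 1 library at a time gave 7 to 12 members higher in TINYOE than WT (7 without TINYOE replicate 3, 12 without WT replicate 2) with a median log2 fold change of 0.37 to 0.54, and 0 lower. In tiny124 against WT it gave 1 to 5 higher (1 without tiny124 replicate 1, 2 without WT replicate 3, 3 without tiny124 replicate 3) and 1 to 2 lower, with a median of 0.0296 to 0.17. Between the lines it gave 6 to 7 higher and 0 lower, with a median of 0.063 to 0.19. The log2 fold change of WRKY70 in tiny124 against WT ranged from -0.43 (without WT replicate 1) to 0.20 and turned positive without WT replicate 2 (0.20) and without tiny124 replicate 3 (0.03). A filter of 5 CPM moved the median in TINYOE against WT to 0.61, with fewer low genes tested; WRKY47 was not tested there. With DESeq2 and with no filter, 2 members were lower in tiny124, the added one being WRKY50; the unfiltered p-values may be too small. Same-numbered libraries had correlations of deviations from -0.307 to 0.36. With 3 libraries a genotype these cannot decide whether equal numbers share a batch, and the labels state no pairing. With a replicate block, 11 members were higher in TINYOE than WT, 4 higher (WRKY33 was lost) and 1 lower in tiny124 than WT, and 7 higher between the lines. Depth limits the 17 untested members, and 3 libraries a genotype limit small fold changes.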

Other observations

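Promoter motifs added after the member values were seen were counted in the same 250 bases. The letters CCGAC, the core of the element bound by DREB factors such as TINY, were in 12% of all protein-coding windows. They were in 4 of the 55 WRKY windows (7.27%), in 0 of the 14 called ones and in 2 of the 24 tested and not called (8.33%). With only 14 windows, a count of 0 is near the background. CGTGCG or CGTGTG, the brassinosteroid response element, was in 6.71% of all windows and in 9 of 55 WRKY windows (16.4%). It was in 2 of the 14 called ones (14.3%), WRKY40 and WRKY51, and in 3 of the 24 tested and not called (12.5%). GCCGCC was in 1.87% of all windows and in 3 WRKY windows (WRKY26, WRKY33 and WRKY75).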
